A study of Mus musculus with 6 samples.

Results

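The genes described here are the ligands and receptors that steer growing axons, measured in the soft palate of mouse embryos with and without the homeobox gene Dlx5. They were chosen by symbol, as families picked with earlier results of these data known: class 3 to class 7 semaphorins, Slits, ephrins and netrins as ligands, and plexins, neuropilins, Robos, Eph receptors, Unc5 receptors and Dcc as receptors. The rule found 68 genes (34 ligands and 34 receptors) among the 49492 gene rows of the deposited table. RNA of the posterior part of the palate at stage E14.5 was sequenced in 3 wild type control libraries and 3 Dlx5-/- libraries. The labels give the genotype of the whole embryo and no Cre driver, and neither the Dlx5 allele nor the strain is given in the sources used here. Whether each library is a separate embryo is not stated, so the p-values reflect only the variation among these libraries, some of which may be technical.

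Axon guidance proteins attract or repel the growth cone, the motile tip of an axon, and the same proteins steer blood vessels, migrating neural crest cells and muscle precursors. Class 3 semaphorins are secreted, and most act through a neuropilin that binds them and a class A plexin that signals. Class 4 to class 6 semaphorins span the membrane and act on plexins directly. Slits repel through Robo receptors. Netrins attract through Dcc and repel through Unc5 receptors, and membrane-bound ephrins signal to Eph receptor kinases on the neighbouring cell. In the developing palate and pharyngeal arches these systems guide the trigeminal and other cranial nerves and pattern the vessels and mesenchyme around them.

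The libraries held 6891798 to 11922442 estimated counts, and the 68 genes took 0.332% to 0.426% of them. Dlx5 checked the labels: it measured 26.1, 15.6 and 16.2 CPM (counts scaled by library size) in control replicates 1, 2 and 3, and 0.827, 1.63 and 1.28 CPM in knockout replicates 1, 2 and 3 (log2 fold change -3.93, SE 0.32, adjusted p = 0.0205, edgeR quasi-likelihood test with Benjamini-Hochberg adjustment over 16218 genes). That call was lost on leaving out control replicate 3 (adjusted p = 0.107, edgeR), knockout replicate 1 (0.0949) or knockout replicate 2 (0.0631), with estimates of -4.04, -3.74 and -4.15. Markers of palate mesenchyme were present in every library, with a summed level of 665 to 780 CPM over 10 genes in controls and 794 to 875 CPM in knockouts. Prrx1 and Pdgfra made up most of that sum, and 6 of the 10 estimates were below 0, among them Lhx8 (-1.19) and Pax9 (-0.67). The other 4 were above 0, the highest at 0.45. At an unadjusted p under 0.05 (edgeR), 3 of the 10 were higher and 2 lower, against 5.61% and 7.23% of all genes. Knockout replicate 3 stood apart, with a mean correlation to the other libraries of 0.959 against 0.970 to 0.976. It also held brain transcripts: 11 brain genes summed to 212 CPM there, against 5.18 to 17.1 CPM in controls and 24.7 and 6.39 CPM in knockout replicates 1 and 2. Of these 11 genes, Gad2, Neurod2, Emx1, Olig1 and Olig2 were each at 0 in at least 1 of the other libraries. Values without knockout replicate 3 are therefore given beside the results.

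No guidance ligand or receptor passed the adjusted threshold of 0.05 in edgeR, which 1 gene (Dlx5 itself, 0.00617% of all genes) did. Nearest to it were a ligand, Sema4f, and a receptor, Epha6, both lower in the knockout. The filter, a mean of at least 1 CPM over all libraries, kept 67 of the 68 genes. Robo3, a Robo of commissural axons, did not pass, its estimated counts being 1, 0 and 3 in control libraries 1 to 3 against 7, 0 and 21 in knockout libraries. At an unadjusted p under 0.05 there were 18 of 67 (26.9%), against 12.8% of all 16218 genes. Of these, 12 were lower in the knockout (17.9% of members, 7.23% of all genes) and 6 were higher (8.96% of members, 5.61% of all genes). DESeq2, run on the same counts, placed 6 members past an adjusted 0.05 (4 lower, 2 higher), where 3.09% of all genes passed. Without the filter, edgeR placed 7 members past it, where 2.27% of all genes passed. Sema4f alone passed with limma-trend (0.598% of all genes), with library totals as the scale (0.253%), with a filter at 5 CPM (0.591%) and without knockout replicate 3 (1.01%).

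At an unadjusted p under 0.05, 7 of 34 ligands were lower (20.6%) and 2 higher (5.88%), and 5 of 33 receptors were lower (15.2%) and 4 higher (12.1%), against 7.23% lower and 5.61% higher of all genes. The difference between ligands and receptors was not tested. The median log2 fold change was 0.06 over ligands and -0.02 over receptors, against 0.01 over all genes. The ligand median turned to -0.03 without knockout replicate 2 or knockout replicate 3, while the receptor median lay between -0.07 and -0.02 whichever library was left out. Summed over the 34 ligands, the level was 1411, 1409 and 1357 CPM across controls, against 1382, 1453 and 1450.1 CPM across knockouts, so the groups overlapped. Summed over the 34 receptors, it was 2414, 2520 and 2481 CPM across controls, against 2255, 2342 and 2233 CPM across knockouts, so every knockout library was below every control library. Plexins and neuropilins carried that difference, at 1339, 1418 and 1361 CPM across controls, against 1127, 1292 and 1082 CPM across knockouts. Among them the mean level fell most for Nrp1 (218 CPM in controls, 146 in knockouts), Plxna4 (157 and 93.2) and Nrp2 (280 and 237). Of their 11 estimates, 3 were above 0. The 23 receptors outside these families overlapped, at 1075, 1101 and 1120.4 CPM across controls, against 1128, 1050.2 and 1151 CPM across knockouts. The CPM ranges of the groups did not overlap for 25 of 67 members (37.3%), 8 higher and 17 lower, against 19.2% of all genes (9.49% higher and 9.7% lower).

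**Figure D1:**
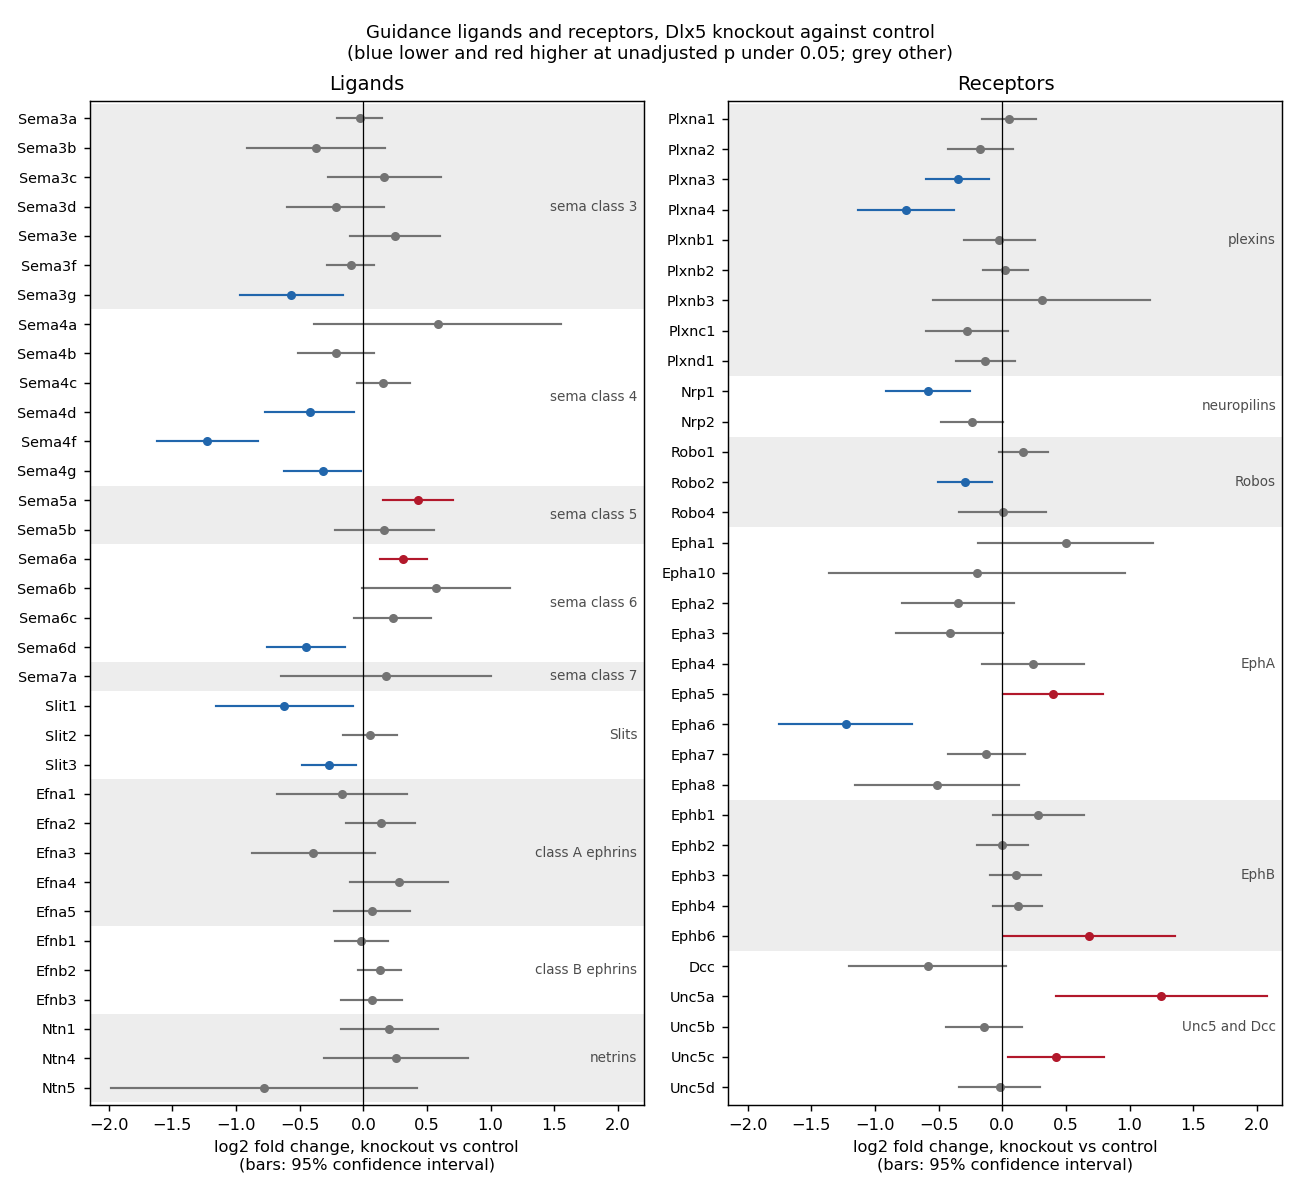
Log2 fold change, knockout against control, of the 34 ligands and the 33 receptors that passed the filter, with 95% confidence intervals from edgeR, grouped by family. Sema4f among ligands and Epha6 among receptors lie furthest to the left at -1.22 and -1.23, Unc5a lies furthest to the right at 1.25, and the intervals of the ephrins all include 0.

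Estimates given below are log2 fold changes, knockout against control, with negative values for lower levels in the knockout. Class 4 semaphorins, membrane-bound ligands, had 3 of 6 members lower at an unadjusted p under 0.05 and 0 higher, where 7.23% of all genes were lower. With 1 library left out the count was 1 without control replicate 2 or knockout replicate 1, and 2 or 3 otherwise. Sema4f, which acts in neurons and in glia of the nerve, measured 24.8, 29.0 and 23.7 CPM across controls, against 13.2, 11.5 and 8.73 CPM across knockouts. All 3 knockout libraries lay below all 3 controls, a fold of 0.428. Its estimate was -1.22 (SE 0.17, 95% confidence interval -1.62 to -0.83), just outside the threshold with an adjusted p = 0.0531 (edgeR). Without knockout replicate 3 the estimate was -1.07 and passed (adjusted p = 0.0315, edgeR). It also passed with limma-trend (adjusted p = 0.0429), with DESeq2 (adjusted p = 5.98e-06) and in 3 of the other alternatives, in a range of 5.98e-06 to 0.239 over 14 alternatives. Sema4d, which signals through Plxnb1, measured 22.3, 27.4 and 18.6 CPM across controls, against 17.0, 16.8 and 17.5 CPM across knockouts (estimate -0.42, SE 0.15, adjusted p = 0.288, edgeR), and -0.26 without control replicate 2. Sema4g measured 21.5, 22.3 and 25.8 CPM across controls, against 18.1, 16.6 and 20.8 CPM across knockouts (-0.32, SE 0.13, adjusted p = 0.354, edgeR). Of the rest, Sema4b lay lower without overlap, at 19.5, 23.6 and 19.5 CPM across controls, against 16.2, 19.1 and 18.7 CPM across knockouts (-0.21, and -0.11 without control replicate 2). Sema4c lay higher without overlap, at 29.6, 27.1 and 26.7 CPM across controls, against 31.2, 31.3 and 30.6 CPM across knockouts (0.16). Sema4a had an estimate of 0.58 that rested on knockout replicate 3, at 8.35 CPM against 2.72 to 3.98 CPM in the other libraries, and was -0.05 without it.

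Class 3 semaphorins, secreted and mostly ligands of neuropilins, had estimates from -0.57 to 0.25. At an unadjusted p under 0.05, 1 of 7 was lower and 0 higher, against 7.23% and 5.61% of all genes. Sema3a, which repels sensory and sympathetic axons, measured 97.6, 87.7 and 88.6 CPM across controls, against 87.5, 90.1 and 90.7 CPM across knockouts (estimate -0.03, 95% confidence interval -0.21 to 0.15). The lower one was Sema3g, a ligand also made by arterial endothelium, at 11.1, 11.0 and 9.89 CPM across controls, against 6.50, 6.94 and 8.13 CPM across knockouts. These ranges did not overlap, but the estimate of -0.57 (SE 0.18) did not pass (adjusted p = 0.221, edgeR). Sema3f, which repels through Nrp2, also lay lower without overlap, at 37.8, 39.3 and 40.3 CPM across controls, against 35.1, 37.7 and 36.7 CPM across knockouts (-0.10). The 4 others, Sema3b, Sema3c, Sema3d and Sema3e, had estimates from -0.37 to 0.25 with overlapping groups. Sema3c, a ligand of neural crest and heart development, measured 72.9, 67.2 and 59.2 CPM across controls, against 75.6, 95.5 and 53.0 CPM across knockouts. Its estimate of 0.16 was 0.36 without knockout replicate 3, where its unadjusted p was 0.0176 (edgeR, adjusted p = 0.246), and -0.065 without knockout replicate 2. Without knockout replicate 3, Sema3b was at -0.17 (from -0.37) and Sema3d at -0.052 (from -0.22).

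The membrane semaphorins of class 5 and class 6 held members on both sides of 0. Sema5a, whose thrombospondin repeats bind proteoglycans, measured 113, 88.6 and 95.6 CPM across controls, against 118, 131 and 149.8 CPM across knockouts. Every knockout library was above every control library, and the estimate of 0.43 (SE 0.12) had an adjusted p of 0.171 in edgeR and 0.0396 in DESeq2. Sema6a, a ligand of Plxna2 and Plxna4, measured 152, 158 and 154 CPM across controls, against 187, 181 and 208 CPM across knockouts. The control libraries lay close together (SD 2.98), and the estimate of 0.31 (SE 0.08) had an adjusted p of 0.14 in edgeR and 0.0367 in DESeq2. Sema6d, a ligand of Plxna1, lay on the other side, at 87.1, 122 and 96.9 CPM across controls, against 75.0, 81.9 and 67.7 CPM across knockouts (-0.45, SE 0.13, adjusted p = 0.203, edgeR), and -0.30 without control replicate 2. Sema6b measured 9.90, 10.6 and 8.46 CPM across controls, against 10.9, 11.9 and 20.2 CPM across knockouts, higher without overlap. Its estimate of 0.57 was 0.23 without knockout replicate 3. Sema5b (0.16), Sema6c (0.23) and the GPI-anchored Sema7a (0.18) had overlapping groups, and Sema7a was -0.38 without knockout replicate 3.

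Among Slits, the repellents read by Robo receptors, 2 of 3 were lower at an unadjusted p under 0.05, where 7.23% of all genes were. That count was 0 when knockout replicate 1 was left out, stayed at 2 when knockout replicate 2 was, and was 1 for each of the other libraries left out. Slit3 measured 56.7, 57.3 and 60.1 CPM across controls, against 43.0, 52.1 and 49.1 CPM across knockouts, with no overlap (log2 fold change -0.27, SE 0.09, adjusted p = 0.264, edgeR). Slit1, a Slit mainly of nervous tissue, measured 14.4, 15.0 and 11.5 CPM across controls, against 7.09, 12.0 and 7.60 CPM across knockouts (-0.62, SE 0.24, adjusted p = 0.317, edgeR), and knockout replicate 2 fell within the range of the controls. Slit2 had an estimate of 0.05 with a 95% confidence interval of -0.16 to 0.26.

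Ephrins and netrins held no member at an unadjusted p under 0.05 (0 of 8 and 0 of 3), where 12.8% of all genes were. The most abundant ephrins, Efnb1 and Efnb2, serve boundaries of mesenchyme and, in the case of Efnb2, arterial vessels. Efnb1 measured 87.6, 89.0 and 79.4 CPM across controls, against 87.2, 89.7 and 76.7 CPM across knockouts, with an estimate of -0.02 (95% confidence interval -0.22 to 0.19). Efnb2 measured 153, 144 and 148 CPM across controls, against 161, 155 and 169 CPM across knockouts. Its knockout libraries were all above its controls, by an estimate of 0.13 (SE 0.07, adjusted p = 0.521, edgeR). Class A ephrins, which are anchored by a lipid, had estimates from -0.39 (Efna3) to 0.28 (Efna4), and Efna5, the most abundant of them, measured 70.6, 56.5 and 51.5 CPM across controls, against 60.0, 57.5 and 69.4 CPM across knockouts (0.07). Ntn1, the founding netrin, measured 33.7, 30.1 and 32.5 CPM across controls, against 28.1, 36.2 and 45.9 CPM across knockouts (0.20), an estimate that was 0.00237 without knockout replicate 3. Ntn4, a netrin of basement membranes, measured 3.77, 4.21 and 3.01 CPM across controls, against 4.49, 4.55 and 4.21 CPM across knockouts, higher without overlap (0.26, and 0.14 without control replicate 3). Ntn5 held 0.542 to 2.59 CPM in any library (-0.78).

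Among receptors, plexins and neuropilins had 8 of 11 estimates below 0, against 47.5% of all genes. At an unadjusted p under 0.05, 3 were lower and 0 higher, against 7.23% and 5.61% of all genes. The lower ones were Plxna4, Nrp1 and Plxna3, which belong to the receptor complexes for class 3 semaphorins. Plxna4, a receptor of sensory and sympathetic axons, measured 140.3, 188 and 142 CPM across controls, against 96.8, 109 and 74.0 CPM across knockouts. All knockout libraries lay below all controls, with an estimate of -0.75 (SE 0.16, 95% confidence interval -1.13 to -0.38, adjusted p = 0.0940, edgeR). Nrp1, which binds Sema3a on axons and vascular endothelial growth factor on endothelium, measured 202, 235 and 218 CPM across controls, against 146, 175 and 116 CPM across knockouts (-0.58, SE 0.14, adjusted p = 0.133, edgeR). Plxna3 measured 33.9, 33.5 and 36.4 CPM across controls, against 27.2, 30.2 and 24.1 CPM across knockouts (-0.35, SE 0.11, adjusted p = 0.215, edgeR). Knockout replicate 3 was the lowest library for each of these 3 receptors, and without it their estimates were -0.61, -0.45 and -0.27. With DESeq2 the adjusted p was 0.000374 for Plxna4, 0.00319 for Nrp1 and 0.312 for Plxna3.

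The other plexins and the second neuropilin had smaller estimates. Nrp2, which favours Sema3f and Sema3c, measured 278, 268 and 295 CPM across controls, against 224, 275 and 214 CPM across knockouts (estimate -0.24, SE 0.11, adjusted p = 0.404, edgeR). Plxna1 gave 0.05 (95% confidence interval -0.16 to 0.26) and Plxna2 gave -0.17 (-0.43 to 0.08). Plxnd1, the receptor for Sema3e on endothelium, gave -0.13, with overlapping groups. Plxnc1, the receptor for Sema7a, lay lower without overlap, at 23.5, 30.0 and 21.4 CPM across controls, against 21.1, 20.4 and 20.5 CPM across knockouts (-0.28, and -0.12 without control replicate 2). Plxnb2, which is broadly expressed in epithelium and mesenchyme, measured 244, 234 and 241 CPM across controls, against 244, 258 and 229.8 CPM across knockouts (0.03, 95% confidence interval -0.15 to 0.20).

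Eph receptors ran from Epha6 at -1.23 to Ephb6 at 0.68. At an unadjusted p under 0.05, 1 of 14 was lower (7.14%) and 2 were higher (14.3%), against 7.23% and 5.61% of all genes. Epha6, a kinase mostly of neurons, measured 9.69, 8.58 and 9.46 CPM across controls, against 3.90, 4.88 and 3.08 CPM across knockouts. The highest knockout library was well under the lowest control library, with a fold of 0.426 (log2 fold change -1.23, SE 0.23, 95% confidence interval -1.75 to -0.71, adjusted p = 0.0712, edgeR). The estimate was -1.07 without knockout replicate 3 (adjusted p = 0.0714, edgeR), and DESeq2 gave an adjusted p of 0.00483. Epha5, its close relative, measured 18.9, 21.0 and 17.5 CPM across controls, against 28.1, 19.0 and 28.7 CPM across knockouts (0.40, SE 0.17, adjusted p = 0.384, edgeR), with knockout replicate 2 inside the control range. Ephb6, an Eph receptor without kinase activity, measured 7.32, 11.2 and 8.89 CPM across controls, against 13.8, 9.54 and 20.6 CPM across knockouts (0.68, SE 0.29, adjusted p = 0.378, edgeR), and 0.34 without knockout replicate 3.

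Of the remaining EphA receptors, 3 had groups that did not overlap, all at low levels. Epha1, an Eph of epithelium, measured 2.58, 3.16 and 2.29 CPM across controls, against 4.84, 3.36 and 3.31 CPM across knockouts (0.50, and 0.30 without knockout replicate 1). Epha2 measured 7.86, 6.88 and 8.17 CPM across controls, against 6.61, 5.74 and 5.64 CPM across knockouts (-0.35). Epha8 measured 3.88, 6.23 and 4.01 CPM across controls, against 3.66, 3.25 and 3.08 CPM across knockouts (-0.51, and -0.24 without control replicate 2). Epha1 was thus higher, and Epha2 and Epha8 lower, in every knockout library, while Epha3, Epha4, Epha7 and Epha10 had overlapping groups. Epha3, the most abundant EphA per exon length, measured 82.8, 129 and 137 CPM across controls, against 99.4, 84.6 and 77.7 CPM across knockouts (estimate -0.41, SE 0.18). All 5 EphB estimates were above 0, with overlapping groups. Ephb1 gave 0.28 (95% confidence interval -0.07 to 0.64), 0.19 without knockout replicate 3, and Ephb3 gave 0.11 (-0.09 to 0.30). Ephb4, the venous partner of Efnb2, measured 138, 119 and 130.3 CPM across controls, against 134, 144 and 143 CPM across knockouts (0.12, 95% confidence interval -0.07 to 0.31), and Ephb2 gave 0.000838 (-0.20 to 0.20).

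Among Robo, Unc5 and Dcc receptors the largest estimate was that of Unc5a, which mediates repulsion by netrin. Unc5a measured 1.72, 3.32 and 3.30 CPM across controls, against 4.84, 5.53 and 9.33 CPM across knockouts. Every knockout library was above every control, and the estimate was 1.25 (SE 0.36, 95% confidence interval 0.42 to 2.08, adjusted p = 0.188, edgeR), or 0.89 without knockout replicate 3. These levels are 16 to 124 estimated counts per library. Unc5c measured 88.8, 64.3 and 55.5 CPM across controls, against 103, 84.3 and 92.5 CPM across knockouts, with overlap through control replicate 1 (0.42, SE 0.17, adjusted p = 0.331, edgeR), and 0.64 without it. Dcc, the attractive netrin receptor, measured 9.47, 8.90 and 12.0 CPM across controls, against 7.32, 8.56 and 4.44 CPM across knockouts, lower without overlap (-0.59, SE 0.27, adjusted p = 0.416, edgeR), and -0.34 without knockout replicate 3. Unc5b and Unc5d gave -0.14 and -0.02.

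Robo2, a Slit receptor of sensory and motor axons, measured 147, 159.5 and 155 CPM across controls, against 134, 131 and 111 CPM across knockouts. All knockouts lay below all controls (log2 fold change -0.29, SE 0.09, adjusted p = 0.223, edgeR). Robo1 measured 172, 155 and 165 CPM across controls, against 183, 171 and 196 CPM across knockouts (0.17, SE 0.08, adjusted p = 0.458, edgeR). Robo4, the Robo of endothelium, gave 0.00362 with a 95% confidence interval of -0.34 to 0.35.

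**Figure D2:**
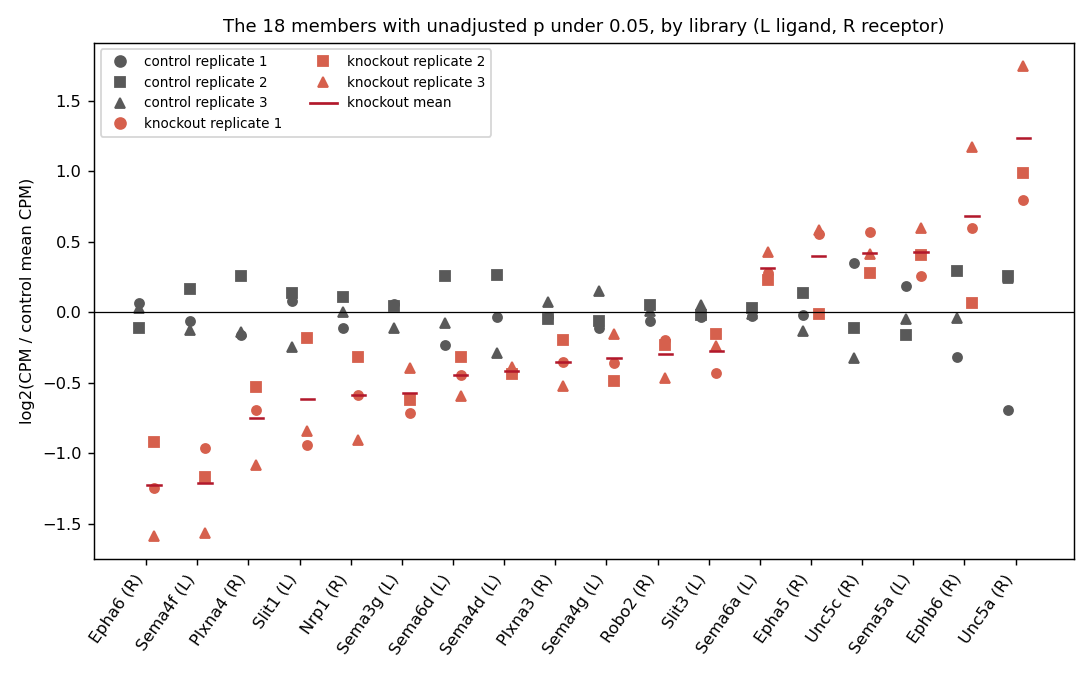
Log2 ratio of CPM to the control mean in each of the 6 libraries for the 18 members with an unadjusted p under 0.05, ordered by fold change, with the knockout mean as a red line. Knockout replicate 3 (red triangles) is the lowest library for 7 of the 12 lower members and the highest for 5 of the 6 higher members.

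The 2 groups did not overlap for 14 of these 18 members, against 86.8% of all genes at an unadjusted p under 0.05. Without knockout replicate 3, 15 of the 18 stayed at an unadjusted p under 0.05 (11 lower and 4 higher), and Epha5, Ephb6 and Slit1 did not. In that fit 16 of 67 members and 13.5% of all genes were at an unadjusted p under 0.05. Over all 67 members, knockout replicate 3 held the highest or lowest value for 40, against 10 to 24 for each of the other libraries.

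Relatives within a family could be set against each other inside each library, which removes any library scaling. The pairs were chosen after the values had been seen. The first gene of every pair was already among the members at an unadjusted p under 0.05, so ratios that separate the groups were likely from the start. The ratios are therefore given without a test and add no support for those members. Of 10 pairs computed, 8 ratios were lower and 1 was higher in every knockout than in any control, and Sema5a to Sema5b overlapped. The ratio of Nrp1 to Nrp2 estimated counts was 0.726, 0.879 and 0.741 across controls, against 0.652, 0.638 and 0.544 across knockouts. That of Plxna4 to Plxna1 was 1.08, 1.47 and 1.13 across controls, against 0.832, 0.789 and 0.518 across knockouts. Both receptor ratios were lower in all 3 knockouts than in any control. The ratio of Epha6 to Epha7 was 0.0931 ± 0.0102 in controls and 0.0454 ± 0.0189 in knockouts (SD, n = 3 each). That of Robo2 to Robo1 was 0.943 ± 0.0866 and 0.688 ± 0.106, and that of Sema6d to Sema6a was 0.660 ± 0.104 and 0.393 ± 0.0632 (SD, n = 3 each). In contrast, Unc5a to Unc5b was higher in every knockout, at 0.108 ± 0.0311 in controls and 0.283 ± 0.0915 in knockouts (SD, n = 3 each).

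**Figure D3:**
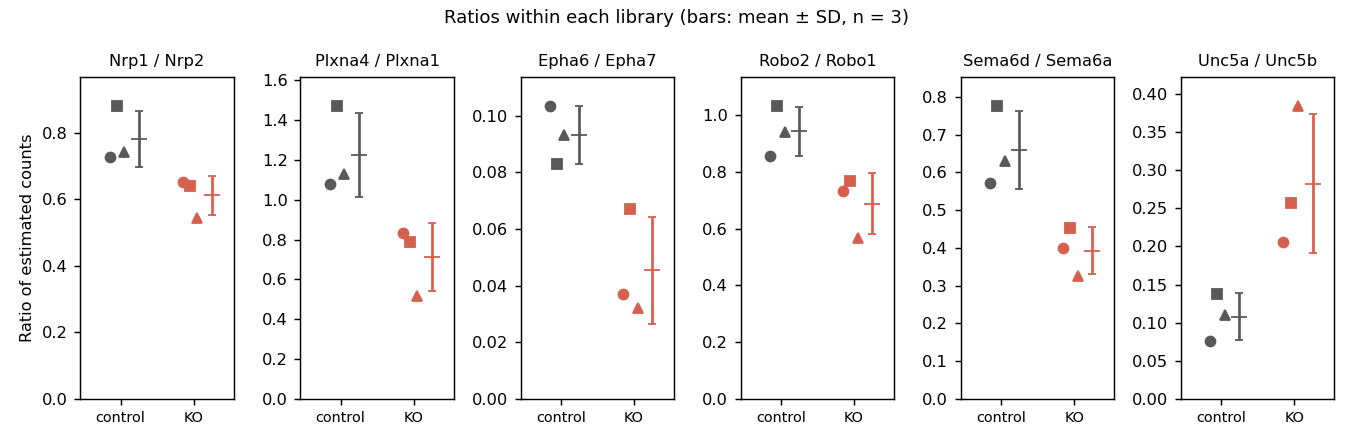
Ratio of estimated counts of 2 relatives in each library, with mean ± SD of 3 libraries beside the points, each axis starting at 0. The first 5 ratios are lower in every knockout (KO) library than in any control library, and Unc5a to Unc5b is higher.

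Known ligand and receptor partners, chosen after their values were seen, are set side by side here. Sema3a had a log2 fold change of -0.03 while its receptor subunits Nrp1 and Plxna4 had -0.58 and -0.75, and Plxna1 had 0.05. Sema6a had 0.31, and its receptors Plxna2 and Plxna4 had -0.17 and -0.75. For Slits, Slit1 had -0.62, Slit3 -0.27 and Slit2 0.05, and their receptors Robo2 and Robo1 had -0.29 and 0.17. Ntn1 had 0.20, beside 1.25 for Unc5a, 0.42 for Unc5c, -0.14 for Unc5b, -0.02 for Unc5d and -0.59 for Dcc. Efna5 had 0.07, beside -0.41 for Epha3, 0.24 for Epha4, 0.40 for Epha5, -1.23 for Epha6 and -0.12 for Epha7. Differences between partners were not tested.

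Per kilobase of annotated exon, the most abundant ligands in controls were Efnb1 (24.7 ± 1.50 CPM per kb), Efnb2 (21.6 ± 0.625), Sema6a (17.6 ± 0.340), Efna5 (14.8 ± 2.46) and Efna2 (13.6 ± 1.93; SD, n = 3). Efnb1 and Efnb2 each lay above Sema6a by more than their spread, whereas Efna5 and Efna2 differed from each other by less than their spread. The most abundant receptors were Plxnb2 (31.0 ± 0.634 CPM per kb), Ephb4 (27.8 ± 1.98), Nrp2 (23.7 ± 1.16), Plxnd1 (22.7 ± 0.875) and Nrp1 (22.3 ± 1.70; SD, n = 3), the last 3 within each other's spread. In knockouts Nrp1 measured 14.9 ± 3.01 CPM per kb, beside 20.0 ± 2.74 for Nrp2 and 20.7 ± 2.57 for Plxnd1 (SD, n = 3). Sema4f measured 4.88 ± 0.531 CPM per kb in controls and 2.11 ± 0.429 in knockouts, and Epha6 measured 1.75 ± 0.111 and 0.747 ± 0.170 (SD, n = 3). Unc5a, at 0.667 ± 0.220 and 1.58 ± 0.580 CPM per kb (SD, n = 3), ranked 31 of 34 receptors in controls.

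**Figure D4:**
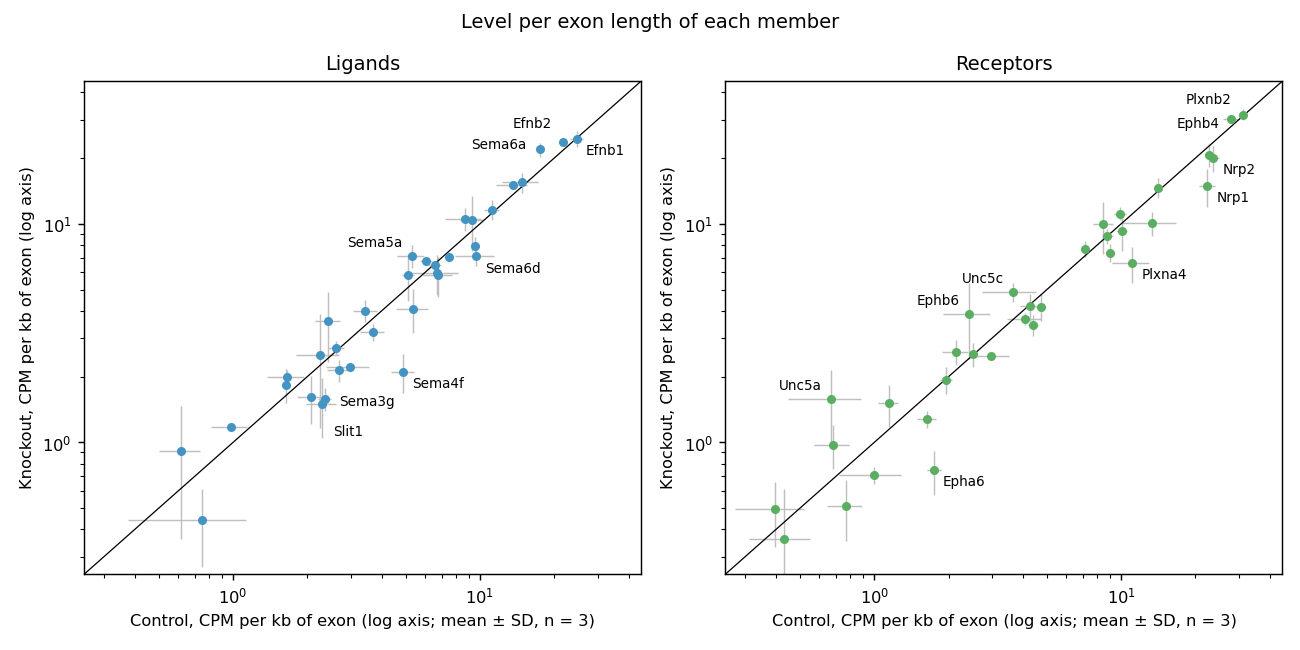
Mean level of each member in controls (x axis) and knockouts (y axis), in CPM per kilobase of exon on log axes, with SD of 3 libraries as grey bars and the line of equality. Sema4f, Epha6, Plxna4 and Nrp1 lie below the line and Unc5a above it, while the abundant Plxnb2 (31.0 and 31.6), Ephb4 and Efnb1 lie on or close to it.

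Several of these genes are known from neurons, and neuron markers were lower in the same knockout libraries. Over 17 neuron genes, all detected in every library, the summed level was 4569, 5802 and 4640.4 CPM across controls, against 3206, 2767 and 2421 CPM across knockouts. Of the 17, 14 were lower, 0 higher and 3 neither at an unadjusted p under 0.05, with a median log2 fold change of -0.74. Of all genes, 7.23% were lower and 5.61% higher. Without knockout replicate 3 all 17 were lower at that level, against 8.27% of all genes in that fit. The sensory neuron genes Prph (-1.28) and Pou4f1 (-0.87) were among the lower ones, neither past the adjusted threshold (adjusted p 0.143 and 0.0821, edgeR). Snap25, Syt1 and Map2, the 3 others, were highest in knockout replicate 3, the library with brain transcripts. In bulk tissue, fewer neurons and less RNA per neuron cannot be told apart, and the part of neuron number in the guidance gene values was not tested.

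Other cell types that carry these receptors were measured in the same way. Endothelium markers (11 of 11 kept) summed to 456 to 542 CPM in controls and 377 to 449.9 CPM in knockouts. Of their estimates 9 were below 0 and 2 above, with a median log2 fold change of -0.14. Without overlap, 3 (27.3%) lay lower and 0 higher, against 9.7% and 9.49% of all genes. At an unadjusted p under 0.05, 1 of 11 was lower and 0 higher, against 7.23% and 5.61% of all genes. Schwann cell and satellite glia markers (9 of 9 kept) summed to 282 to 372 CPM in controls and 266 to 505 CPM in knockouts, with 0 of 9 at that level. Skeletal muscle markers (14 of 14 kept) summed to 1282 to 2208 CPM in controls and 1560.1 to 4295 CPM in knockouts, with 11 higher at that level (12 without knockout replicate 3). No gene of these 3 lists was at 0 in any library, and their part in the guidance gene values was not tested.

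**Figure D5:**
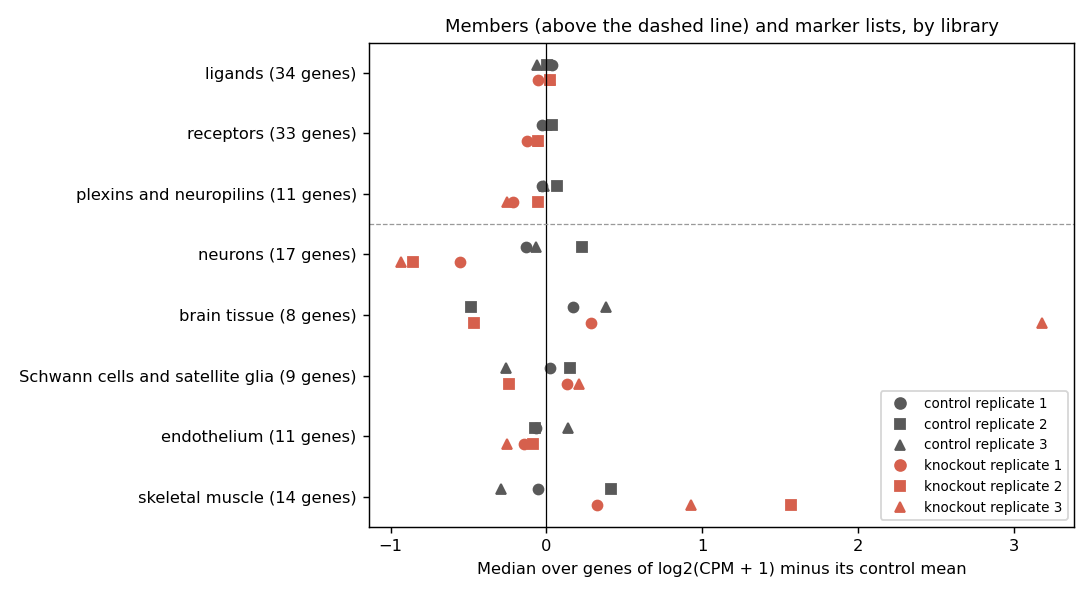
Median over the genes of a list of log2(CPM + 1) minus the gene's control mean, for each of the 6 libraries, for guidance ligands, receptors, plexins with neuropilins and for marker lists of 5 tissues or cell types. The neuron medians are -0.56, -0.86 and -0.93 in the knockouts, those of all ligands and all receptors stay between -0.12 and 0.04, and brain genes reach 3.18 in knockout replicate 3.

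Further guidance genes, outside the ligand and receptor families above, were read from lists written with earlier results of these data known. Among 32 other cues and co-receptors, 0 passed the adjusted threshold in edgeR, and at an unadjusted p under 0.05 9 were lower and 4 higher (7.23% and 5.61% of all genes), with a median log2 fold change of 0.03. Among 37 of 38 cytoplasmic effectors kept, 0 passed, 8 were lower and 2 higher at that level, and the median was 0.000989. Without knockout replicate 3 the medians were -0.097 for cues and -0.12 for effectors, with 11 lower and 4 higher cues and 8 lower and 0 higher effectors. The 5 with the smallest p, named after their values were seen, were the axonal adhesion molecules L1cam (-0.94, adjusted p = 0.0528) and Cntn4 (-1.56, adjusted p = 0.0550), the Hedgehog co-receptor Cdon (0.88, adjusted p = 0.0528), the collapsin response mediator Crmp1 (-0.75, adjusted p = 0.0528), which relays Sema3a signals, and the actin-binding Ablim1 (-0.67, adjusted p = 0.0550; all edgeR). All 5 passed without knockout replicate 3, with edgeR adjusted p from 0.0307 to 0.0378. L1cam, a partner of Nrp1 in sensory axons, had a control mean of 90.5 ± 15.2 CPM and a knockout mean of 47.2 ± 3.60 CPM (SD, n = 3 each).

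Sequence upstream of the start was read for the 58 members that RefSeq promoter windows of GRCm38.p6 (mm10) matched, in 74 windows of 250 bases that end just before a start. TAATTA, a core read by many homeodomain proteins, Dlx proteins among them, and its own reverse complement, was in 3 of the 74 windows (those of Efna1, Epha5 and Robo3), against 4.84% of 32851 windows of all genes. The GC box GGGCGG, or CCGCCC on the other strand, was in 52 of 74, against 32.7% of all windows. The motifs share no letters with each other in these windows, and windows of the same gene can overlap. Shown are the windows of the members with the lowest estimates, Sema4f and Epha6, of the highest, Unc5a, and of Epha5, which holds TAATTA. They run 5′ to 3′ on the gene's strand, with both motifs in capitals: Sema4f from chr6:82939770-82940019 (minus strand), Epha6 from chr16:60605532-60605781 (minus), Unc5a from chr13:54949161-54949410 (plus) and Epha5 from chr5:84417383-84417632 (minus).
Sema4f: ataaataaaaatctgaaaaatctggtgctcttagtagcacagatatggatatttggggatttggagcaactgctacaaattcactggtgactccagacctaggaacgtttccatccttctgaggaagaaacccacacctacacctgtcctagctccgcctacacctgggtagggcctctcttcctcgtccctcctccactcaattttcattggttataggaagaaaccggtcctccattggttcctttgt
Epha6: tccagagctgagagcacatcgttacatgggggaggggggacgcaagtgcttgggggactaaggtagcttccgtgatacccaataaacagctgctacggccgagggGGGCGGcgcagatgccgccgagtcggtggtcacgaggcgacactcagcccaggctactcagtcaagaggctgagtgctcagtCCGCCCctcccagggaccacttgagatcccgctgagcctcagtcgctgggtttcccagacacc
Unc5a: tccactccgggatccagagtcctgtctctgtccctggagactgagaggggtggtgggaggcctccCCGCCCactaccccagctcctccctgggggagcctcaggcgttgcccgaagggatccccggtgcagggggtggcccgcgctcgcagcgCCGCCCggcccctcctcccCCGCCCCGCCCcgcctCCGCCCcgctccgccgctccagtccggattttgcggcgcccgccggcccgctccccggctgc
Epha5: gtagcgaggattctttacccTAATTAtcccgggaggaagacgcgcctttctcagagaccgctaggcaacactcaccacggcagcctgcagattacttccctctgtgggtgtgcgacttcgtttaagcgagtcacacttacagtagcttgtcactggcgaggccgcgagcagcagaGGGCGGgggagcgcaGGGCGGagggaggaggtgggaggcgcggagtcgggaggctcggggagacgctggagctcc

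The Sema4f window held neither motif and 46.0% G and C, whereas that of Unc5a held 5 GC boxes, 1 overlapping the next, and 76.8% G and C. Epha6 held 2 GC boxes, and Epha5 held 2 GC boxes and 1 TAATTA. Epha6, with 1 window and no TAATTA, had an estimate of -1.23. Epha5, with 1 TAATTA, had 0.40 with overlapping groups, and Efna1, also with 1, had -0.17 with overlapping groups. A link between the motif and the estimates was not tested. In the annotation of the same build, Sema4f lies on chromosome 6 from 82911885 to 82939769 and Epha6 on chromosome 16 from 59653483 to 60605531, both on the minus strand. The exons of 14 members overlap a gene on the opposite strand, and the use of strand in counting is not given in the sources used here. For Epha1 the overlap is 236 bases (6.01%) with Zyx, which held 724 to 1745 estimated counts per library. Among members with an unadjusted p under 0.05, the overlap is 107 bases (2.02% of exon length) for Epha6, 110 bases (0.780%) for Plxna4, 34 bases (0.816%) for Unc5a and 118 bases (0.617%) for Unc5c. The overlapping gene held 0 estimated counts in every library for Epha6 and 0 to 2 for Plxna4. It held 8 to 23 for Unc5a and 0 to 17 for Unc5c.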

How the data were processed

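RNA from posterior palate at stage E14.5 was sequenced in 3 control and 3 Dlx5-/- samples. The deposited values are estimated counts per gene, made by the authors with STAR 2.4.1d, Partek and mm10, per the submitters' processing notes. Annotation, counting settings and strandedness: not given in the sources used here. Of values above 0.5, 64.5% were whole within 0.001, so all were rounded to whole counts. The table's own label calls it normalized, but its totals differ between samples. The table has 1 further value column, left out because its name fits no labelled sample.

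Genes with a mean of at least 1 CPM were tested with edgeR 4.0.16 in R 4.3.3 (TMM factors, quasi-likelihood test, Benjamini-Hochberg adjustment over all 16218 genes, threshold 0.05). CPM use TMM factors. Alternatives were DESeq2 1.42.0, limma 3.58.1 with trend on log2(CPM + 1), other scaling and filters, a replicate block and leaving out each library. Exon lengths, coordinates and overlaps came from GENCODE on GRCm38. Values in every library were given for members with an unadjusted p under 0.05 or non-overlapping groups and for the most abundant per kilobase of each family. The members and lists were chosen with earlier results of these data known.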

Additional observations from a re-analysis of the deposited data

How the results depend on the processing

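The number of genes past the adjusted threshold, 1 of 16218 in edgeR, was 41 with library totals, 679 of 29870 without a filter, 74 with a filter at 5 CPM, 501 with DESeq2, 97 with limma-trend, 0 with the replicate block and 0 to 164 with 1 library left out, 164 being without knockout replicate 3. The number of members past it, 0 in edgeR, was 1 with library totals, 7 without a filter, 1 with a filter at 5 CPM, 6 with DESeq2, 1 with limma-trend and 0 to 1 with 1 library left out, that 1 being without knockout replicate 3. The cause was not tested. The 18 members at an unadjusted p under 0.05 kept their sign in all 14 alternatives. With 1 library left out the count of members at that level ran from 13 to 22. With the replicate block it was 16. Whether libraries of the same number belong together is not stated. Over all genes tested, their deviations from the group means correlated at -0.014, -0.011 and 0.020, against -0.053 to 0.063 for libraries of different numbers. A pairing that touches few genes would not show in these values. The call of Dlx5 was lost with the block (adjusted p = 0.062, edgeR) and on leaving out control replicate 3 (0.107), on leaving out knockout replicate 1 (0.0949) and on leaving out knockout replicate 2 (0.0631). The median log2 fold change of ligands ran from -0.034 to 0.088 with 1 library left out, and that of receptors from -0.067 to -0.022, or -0.077 with a filter at 5 CPM. In all, 49 of 67 members kept their sign throughout. The other 18 changed sign with at least 1 library left out, over these ranges: Efna5 -0.028 to 0.21, Efnb1 -0.072 to 0.047, Efnb3 -0.024 to 0.12, Epha10 -0.95 to 0.13, Epha4 -0.011 to 0.35, Epha7 -0.24 to 0.0032, Ephb2 -0.043 to 0.065, Plxna1 -0.011 to 0.13, Plxnb1 -0.16 to 0.052. For the rest of them the ranges were Plxnb2 -0.029 to 0.064, Plxnb3 -0.016 to 0.54, Robo4 -0.10 to 0.049, Sema3a -0.059 to 0.021, Sema3c -0.065 to 0.36, Sema4a -0.046 to 0.87, Sema7a -0.38 to 0.42, Slit2 -0.011 to 0.11, Unc5d -0.12 to 0.066. Ephb2 also changed sign with RLE factors (-0.0015), library totals (-0.0071), a filter at 5 CPM (-0.0020), DESeq2 (-0.00026), limma-trend (-0.0024) and the replicate block (-0.0019), and Robo4 with library totals (-0.0074), DESeq2 (-0.00087) and the replicate block (-0.00051). Genes of few counts, such as Ntn5, Epha10 and Sema4a, have the widest intervals.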
